A study of Homo sapiens with 12 samples.

Results

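The genes described here are 10 genes of mitotic entry and of the FOXM1 pathway (PLK1, AURKA, CDC20, CDC25B, CDC25C, FOXM1, MYBL2, TPX2, TOP2A and MKI67), chosen by name from 58735 genes in the count table. All 10 had enough counts to be tested. FOXM1 is a forkhead transcription factor that, together with B-MYB (the product of MYBL2) and the MuvB complex, drives a wave of transcription in G2 and mitosis, and it is in turn activated by the kinases whose genes it turns on. PLK1 and AURKA, with the AURKA activator TPX2 and the phosphatases CDC25B and CDC25C, switch on CDK1 and build the spindle, and CDC20 activates the anaphase-promoting complex that ends mitosis. TOP2A untangles sister chromatids and MKI67 encodes Ki-67, the coat protein of mitotic chromosomes used in pathology as a marker of proliferating cells.

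RNA-seq covered the human ovarian cancer line ES2 engineered as FDX2-iKO, in 12 libraries from 4 conditions with 3 biological replicates each. In every condition the cells carried the TetON regulators and an HA-tagged, editing-resistant FDX2 under a Doxy-dependent promoter, and their endogenous FDX2, which encodes a ferredoxin of mitochondrial iron-sulfur cluster assembly, had been knocked out with Cas9. Doxy therefore maintained FDX2, and withdrawing it led to FDX2 loss. The conditions were 6 days at 20% O2 with Doxy, 6 days at 20% O2 without Doxy, and 4 days at 20% O2 followed by 3 days at 3% O2 with Doxy or without Doxy. The cells were those of 1 clone unless the study states otherwise. No condition held cells with intact FDX2, so FDX2 loss cannot be told apart from removal of Doxy itself, nor O2 from the day more in culture at 3% O2.

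Between 24958386 and 34313637 reads were counted on genes per library. FDX2 itself had 2 to 13 counts in each library (5, 2 and 6 counts with and 9, 13 and 4 without Doxy at 20% O2, and 2, 4 and 12 with and 7, 7 and 5 without Doxy at 3% O2). It was too low to be tested and 70.9% of its exonic bases are shared with other annotated genes, so these counts check none of the labels. Of 6 markers of ovarian cancer lines, PAX8 alone passed the filter, MUC16 and EMX2 had no count in any library, and the 6 summed to 6.11 to 19.7 CPM. The 4 mesenchymal markers (VIM, FN1, CDH2 and ZEB1) summed to 3031 to 5084 CPM, the 6 epithelial markers to 841 to 1409 CPM (CDH1 and EPCAM at 0 to 3 counts), and the 5 blood cell markers to 0.927 to 2.74 CPM. The 3 endothelial markers summed to 22.1 to 51.6 CPM, nearly all of it CDH5 (656 to 1412 counts), with PECAM1 at 0 to 5 and VWF at 0 to 6 counts. CDH5 was called higher on FDX2 loss at 3% O2, with a log2 fold change of 0.49 ± 0.12 (edgeR's quasi-likelihood test, adjusted p = 0.0305), and at 3% against 20% O2 without Doxy, at 0.77 ± 0.12 (adjusted p = 0.00114). Other markers were called as well. At 3% against 20% O2, PAX8 was higher with Doxy (0.86) and without (0.79), and the blood cell marker LYZ without (0.86). On FDX2 loss at 20% O2, 2 epithelial markers were called lower, and 1 mesenchymal marker lower and 2 higher. Of all 16891 tested genes, 709 were called higher on FDX2 loss at 3% O2, and 2348 at 3% against 20% O2 without Doxy. The first replicate at 20% O2 with Doxy and the third at 3% O2 with Doxy stood apart from the rest by a steep trend of counts on GC content, log2 0.28 and 0.26 per 10 points of GC against −0.20 to 0.15 in the other 10 libraries. The first replicate at 3% O2 without Doxy stood apart from its group without such a trend (−0.10). Its counts differed from those of the other 2 replicates by a mean chi-square per gene of 41.9 and 37.7, against 10.8 between those 2 and 1 under sampling noise alone.

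Promoter sequence bears on genes that move together in the cell cycle. Genes of G2 and mitosis are known for the cell cycle genes homology region (TTTGAA), the element bound by MuvB, near a CCAAT box, the element bound by NF-Y, whereas G1/S genes are known for E2F sites such as GGCGGGA. RefSeq windows on GRCh38.p14, from 250 bases before to 50 after each start site, were at hand for 7 of the 10 genes (not for AURKA, FOXM1 and TPX2) and were searched for these letters on both strands. TTTGAA was found in 5 of the 7 genes (PLK1, CDC20, CDC25C, TOP2A and MKI67), against 18.2% of all 27305 genes and 15.2% of all windows. The related TTCGAA was found in CDC25B, against 1.82% of all genes and 1.45% of all windows, and MYBL2 held neither. A match in any window counted for a gene. CDC25B and CDC25C had 4 windows each, and PLK1, CDC20, MYBL2, TOP2A and MKI67 had 1 each, with 35116 windows over all 27305 genes. CCAAT was found in 6 of the 7 (not in MYBL2), against 39.7% of all genes, and GGCGGGA in 4 (CDC25B, MYBL2, TOP2A and MKI67), against 18.0%.

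One stretch of each of the 7 genes is shown 5′ to 3′ in the direction of transcription, chosen to hold the homology region or its relative and, in MYBL2, the E2F-like match, with every match inside it in capitals. Other matches lie outside the stretches, namely CCAAT of PLK1, CDC25C and CDC25B, 2 more CCAAT of TOP2A, 1 more TTTGAA of CDC20, and GGCGGGA of CDC25B and MKI67. The capitals mark the CCAAT box (read as ATTGG where it lies on the other strand), the homology region TTTGAA (then read as TTCAAA), its relative TTCGAA, and the E2F-like GGCGGGA (then read as TCCCGCC). In MKI67 the second TTTGAA shares its last A with the following ATTGG. Those of PLK1 (chr16:23678848-23678877, plus strand), CDC25C (chr5:138331817-138331846, minus strand), CDC25B (chr20:3796260-3796289, plus strand) and MYBL2 (chr20:43667061-43667090, plus strand) lie within an exon of a longer GENCODE transcript and were kept to 30 bases, and those of CDC20 (chr1:43358876-43358953, plus strand), MKI67 (chr10:128126424-128126523, minus strand) and TOP2A (chr17:40418036-40418146, minus strand) lie outside the exons of their genes.
PLK1: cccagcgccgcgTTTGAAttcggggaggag
CDC20: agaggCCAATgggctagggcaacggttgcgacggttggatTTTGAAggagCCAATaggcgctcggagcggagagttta
CDC25C: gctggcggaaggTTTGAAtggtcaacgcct
MKI67: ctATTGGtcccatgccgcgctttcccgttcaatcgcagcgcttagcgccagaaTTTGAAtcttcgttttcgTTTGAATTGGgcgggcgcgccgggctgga
TOP2A: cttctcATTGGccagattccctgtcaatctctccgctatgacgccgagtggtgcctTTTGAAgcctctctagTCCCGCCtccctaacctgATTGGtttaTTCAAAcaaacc
CDC25B: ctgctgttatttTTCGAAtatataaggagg
MYBL2: gcgccgacgcgcttGGCGGGAgatagaaaa
The first base of TTTGAA, on either strand, lay 29 bases before the start in PLK1, 178 and 65 in CDC20, 30 in CDC25C (where it is base 44 after another start), 47 and 29 in MKI67, and 194 and 151 in TOP2A, while TTCGAA lay 38 bases before the start of CDC25B. A match describes these letters and is not a mapped site. The same search found TTTGAA in 13 of 20 other genes known as FOXM1 targets, 8 of 13 other genes of the mitotic entry switch, 6 of 11 MuvB and DREAM genes, 4 of 16 genes of the anaphase-promoting complex and none of 14 G1/S genes. GGCGGGA was found in 5, 5, 9, 5 and 11 of them, in the same order.

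With Doxy at 20% O2 the 10 genes spanned a wide range of levels. Per kilobase of exon, CDC20 was highest at 218 ± 27.5 CPM (mean ± SD, n = 3), followed by TPX2 at 125 ± 6.39, TOP2A at 104 ± 7.77, AURKA at 70.4 ± 3.96, FOXM1 at 51.7 ± 5.03, MKI67 at 45.1 ± 0.695, PLK1 at 35.7 ± 4.15, MYBL2 at 27.9 ± 4.91, CDC25B at 21.1 ± 3.62 and CDC25C at 5.57 ± 0.0717 CPM. In this order the replicates of PLK1 and MYBL2 overlapped, as did those of MYBL2 and CDC25B, and all other neighbours were separate. Levels from here on are CPM (counts scaled to library size with TMM, not per length), which compare a gene between conditions.

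After FDX2 loss at 20% O2 all 10 genes were lower. Each was called lower by edgeR's quasi-likelihood test at a Benjamini-Hochberg adjusted p under 0.05 over 16891 genes, where 17.7% of all tested genes were called lower, and in each the 3 replicates without Doxy lay below the 3 with Doxy, a pattern seen in 25.8% of all tested genes. The median log2 fold change of the 10 was −0.77, against 0.0090 over all tested genes. After the same withdrawal of Doxy at 3% O2, 5 of the 10 were called lower (PLK1, AURKA, TPX2, TOP2A and MKI67), against 3.11% of all tested genes, with a median of −0.26 against 0.041. The 3 replicates without Doxy lay below the 3 with Doxy in 8 of the 10, against 11.2% of all tested genes. The groups overlapped in FOXM1 and CDC25B. In bulk RNA, fewer cells in G2 and mitosis and less RNA in each such cell cannot be told apart. All 10 calls at 20% O2 held whichever of the 6 libraries was left out, while at 3% O2 between 1 and 4 of the 10 were then called (3 without the first replicate without Doxy). With the replicate number as a block in all 12 libraries, the calls of PLK1 (adjusted p = 0.0945) and TPX2 (adjusted p = 0.0501) at 3% O2 were lost.

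**Figure D1:**
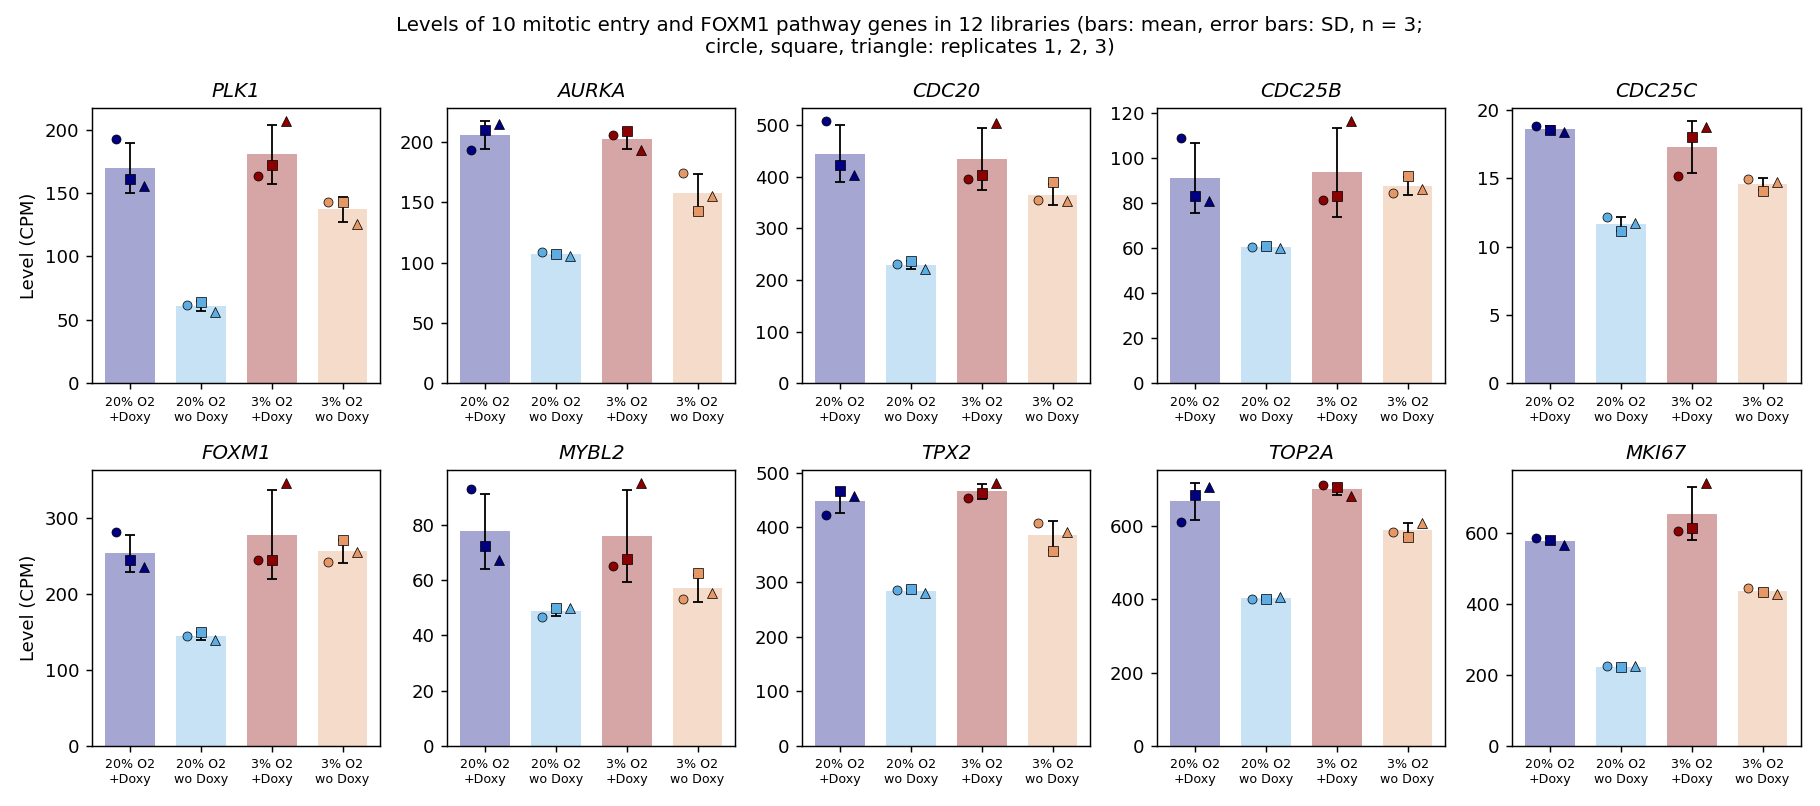
Level of each gene in CPM (y axis, from 0) in the 4 conditions (x axis), with bars for the mean, error bars for the SD and 1 point per replicate (circle, square and triangle for replicates 1, 2 and 3). In all 10 genes the 3 replicates at 20% O2 without Doxy are the lowest of the 12, and in MYBL2, CDC25B, FOXM1, PLK1 and CDC20 the first replicate at 20% O2 with Doxy and the third at 3% O2 with Doxy stand above the other replicates of their condition.

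Of the transcription factors, FOXM1 (ENSG00000111206, chr12:2857681-2877155, minus strand) stood at 281, 244 and 235 CPM with Doxy and 145, 150.0 and 139 CPM without Doxy at 20% O2. These groups were well apart, and the log2 fold change was −0.81 ± 0.13 (adjusted p = 0.000527), which left 57.0% of the level with Doxy. At 3% O2 FOXM1 stood at 244, 244 and 346 CPM with Doxy and 241, 271 and 255 CPM without. All but the third replicate with Doxy lay within 241 to 271 CPM there, the groups overlapped, and the log2 fold change of −0.12 ± 0.12 (adjusted p = 0.606) missed the threshold. Without the third replicate with Doxy it turned to 0.068. Exons of ITFG2 on the opposite strand overlap 15.9% of the exonic bases of FOXM1, and the strand setting of the counting is not given in the sources used here.

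MYBL2 (ENSG00000101057, chr20:43667019-43716496, plus strand), the B-MYB gene, stood at 93.1, 72.4 and 67.3 CPM with Doxy and 46.6, 49.8 and 49.9 CPM without Doxy at 20% O2. The groups were separate although the replicates with Doxy spread widely, and the log2 fold change was −0.67 ± 0.15 (adjusted p = 0.00556). At 3% O2 it stood at 64.9, 67.8 and 95.1 CPM with Doxy and 53.2, 62.6 and 55.2 CPM without. Every replicate without Doxy was lower there as well, but the log2 fold change of −0.41 ± 0.15 (adjusted p = 0.128) missed the threshold. It passed once the GC trend of each library was taken out, at −0.48 ± 0.062 (adjusted p = 0.000525), and MYBL2, with 60.2% GC, was the most GC-rich of the 10 genes.

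Of the mitotic kinases, PLK1 (ENSG00000166851, chr16:23677656-23690367, plus strand), Polo-like kinase 1, stood at 192, 161 and 156 CPM with Doxy and 62.0, 64.2 and 56.2 CPM without Doxy at 20% O2. This was the largest fall among the 10 genes, with a log2 fold change of −1.48 ± 0.11 (adjusted p = 2.89e-06) that left 35.8% of the level. At 3% O2 PLK1 stood at 163, 172 and 207 CPM with Doxy and 143, 143 and 125 CPM without, all lower without Doxy. Here the log2 fold change was −0.40 ± 0.11 (adjusted p = 0.0463), which left 75.8% of the level. This call at 3% O2 was near the threshold and was lost when any 1 of the 6 libraries was left out (adjusted p = 0.0516 to 0.123). Exons of ERN2 and AC008870.3 on the opposite strand overlap 12.5% of the exonic bases of PLK1.

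AURKA (ENSG00000087586, chr20:56369389-56392337, minus strand), Aurora kinase A, stood at 193, 209.8 and 215 CPM with Doxy and 109, 107 and 105 CPM without Doxy at 20% O2. The groups were well apart, and the log2 fold change was −0.94 ± 0.073 (adjusted p = 4e-06), which left 52.0% of the level. At 3% O2 AURKA stood at 206, 209 and 193 CPM with Doxy and 174, 143 and 155 CPM without, separate groups with a log2 fold change of −0.36 ± 0.072 (adjusted p = 0.0125), a call lost without the second replicate with Doxy. Its activator TPX2 (ENSG00000088325, chr20:31739271-31801805, plus strand), which targets the kinase to spindle microtubules, stood at 423, 467 and 457 CPM with Doxy and 285, 287 and 280.1 CPM without Doxy at 20% O2. TPX2 had a log2 fold change of −0.66 ± 0.057 (adjusted p = 9.31e-06), again with separate groups. At 3% O2 TPX2 stood at 454, 463 and 481 CPM with Doxy and 408, 357 and 391 CPM without. The groups were again separate, and the log2 fold change was −0.28 ± 0.057 (adjusted p = 0.0159), a call lost without the second replicate with Doxy or the second without.

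The CDC25 phosphatases remove inhibitory phosphates from CDK1. CDC25B (ENSG00000101224, chr20:3786772-3806121, plus strand) stood at 109, 83.1 and 81.1 CPM with Doxy and 60.4, 61.0 and 60.0 CPM without Doxy at 20% O2. The replicates without Doxy were almost equal and all lower, and the log2 fold change was −0.59 ± 0.14 (adjusted p = 0.00742), the smallest fall of the 10 genes. At 3% O2 it stood at 81.4, 83.3 and 117 CPM with Doxy and 84.6, 91.9 and 86.3 CPM without. These groups overlapped, with a log2 fold change of −0.10 ± 0.14 (adjusted p = 0.714) that turned to 0.088 without the third replicate with Doxy.

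CDC25C (ENSG00000158402, chr5:138285265-138338355, minus strand) stood at 18.9, 18.5 and 18.4 CPM with Doxy and 12.2, 11.1 and 11.8 CPM without Doxy at 20% O2. The groups were separate, with a log2 fold change of −0.67 ± 0.079 (adjusted p = 7.81e-05). At 3% O2 it stood at 15.2, 18.0 and 18.8 CPM with Doxy and 14.9, 14.1 and 14.7 CPM without, where the first replicate with Doxy came close to those without. There it had a log2 fold change of −0.25 ± 0.078 (adjusted p = 0.0809) and missed the threshold. Exons of FAM53C on the opposite strand overlap 8.78% of the exonic bases of CDC25C.

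CDC20 (ENSG00000117399, chr1:43358955-43363203, plus strand), the activator of the anaphase-promoting complex, stood at 508, 423 and 403 CPM with Doxy and 230.2, 237 and 221 CPM without Doxy at 20% O2. The log2 fold change was −0.95 ± 0.11 (adjusted p = 5.16e-05), which left 51.6% of the level. At 3% O2 it stood at 395, 403 and 504 CPM with Doxy and 354, 389.6 and 352 CPM without. The highest replicate without Doxy lay just under the lowest with Doxy, and the log2 fold change of −0.25 ± 0.10 (adjusted p = 0.182) missed the threshold. It passed with the GC trend taken out, at −0.28 ± 0.043 (adjusted p = 0.00146).

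Of the chromosome proteins, TOP2A (ENSG00000131747, chr17:40388516-40417950, minus strand), DNA topoisomerase II alpha, stood at 611, 686 and 706 CPM with Doxy and 400.2, 402 and 406 CPM without Doxy at 20% O2. Its log2 fold change was −0.73 ± 0.054 (adjusted p = 3.09e-06), with the groups separate. At 3% O2 TOP2A stood at 712, 707 and 683 CPM with Doxy and 585, 571 and 609 CPM without, again separate, with a log2 fold change of −0.25 ± 0.054 (adjusted p = 0.0184). This call was lost without the first or the second replicate of either group. MKI67 (ENSG00000148773, chr10:128096659-128126385, minus strand) stood at 585, 581 and 568 CPM with Doxy and 224, 222 and 225 CPM without Doxy at 20% O2. These replicates agreed closely, and the log2 fold change of −1.37 ± 0.068 (adjusted p = 2.95e-07) left 38.7% of the level. At 3% O2 MKI67 stood at 607, 616 and 742 CPM with Doxy and 445, 434 and 428 CPM without. The log2 fold change there, −0.59 ± 0.067 (adjusted p = 0.000702), was the largest fall of the 10 genes at 3% O2 and the one call of the 5 that held whichever of the 6 libraries was left out.

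Whether the response to FDX2 loss itself differed between 3% and 20% O2 was tested as the difference of the 2 log2 fold changes. It was above 0, meaning a smaller fall at 3% O2, in all 10 genes and was called in 8 of them, against 3.21% of all tested genes called in that direction, and its median was 0.54, against 0.054 over all tested genes. The difference was 1.08 ± 0.15 (adjusted p = 0.00243) for PLK1, 0.78 ± 0.095 (adjusted p = 0.00112) for MKI67 and 0.71 ± 0.15 (adjusted p = 0.0173) for CDC20. It was 0.69 ± 0.18 (adjusted p = 0.0396) for FOXM1 and 0.58 ± 0.10 (adjusted p = 0.00751) for AURKA. PLK1, MKI67, CDC20, AURKA and TOP2A, at 0.48 ± 0.076 (adjusted p = 0.00454), kept this call whichever of the 12 libraries was left out. With the replicate number as a block, PLK1, MKI67, AURKA and TOP2A kept it (adjusted p = 0.00659 to 0.0286), but CDC20 (adjusted p = 0.0534), TPX2 (0.0537), FOXM1 (0.0856) and CDC25C (0.0978) missed the threshold. The difference was 0.42 ± 0.11 (adjusted p = 0.0446) for CDC25C and 0.38 ± 0.081 (adjusted p = 0.0175) for TPX2, whose calls held in 1 and 7 of the 12 fits that left out a library. The call of FOXM1 held in 3 of these 12 fits, those without the third replicate at 20% O2 with Doxy, the third at 3% O2 with Doxy or the first at 3% O2 without Doxy. That of CDC25C held without the third replicate at 3% O2 with Doxy, and that of TPX2 was lost without the second replicate of either condition with Doxy or any 1 replicate at 20% O2 without Doxy.

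CDC25B and MYBL2 were not called for this difference. CDC25B, at 0.49 ± 0.20 (adjusted p = 0.162), passed with the GC trend taken out, at 0.34 ± 0.10 (adjusted p = 0.0314). MYBL2 had 0.26 ± 0.21 (adjusted p = 0.507), and with the GC trend taken out 0.043 ± 0.088 (adjusted p = 0.798). On the log2 scale the response of MYBL2 at 3% O2 was 61.8% of that at 20% O2, against 14.7% for FOXM1, 16.7% for CDC25B, 26.0% for CDC20, 27.0% for PLK1 and 34.5% to 42.9% for the other 5. These shares carry no test between genes.

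**Figure D2:**
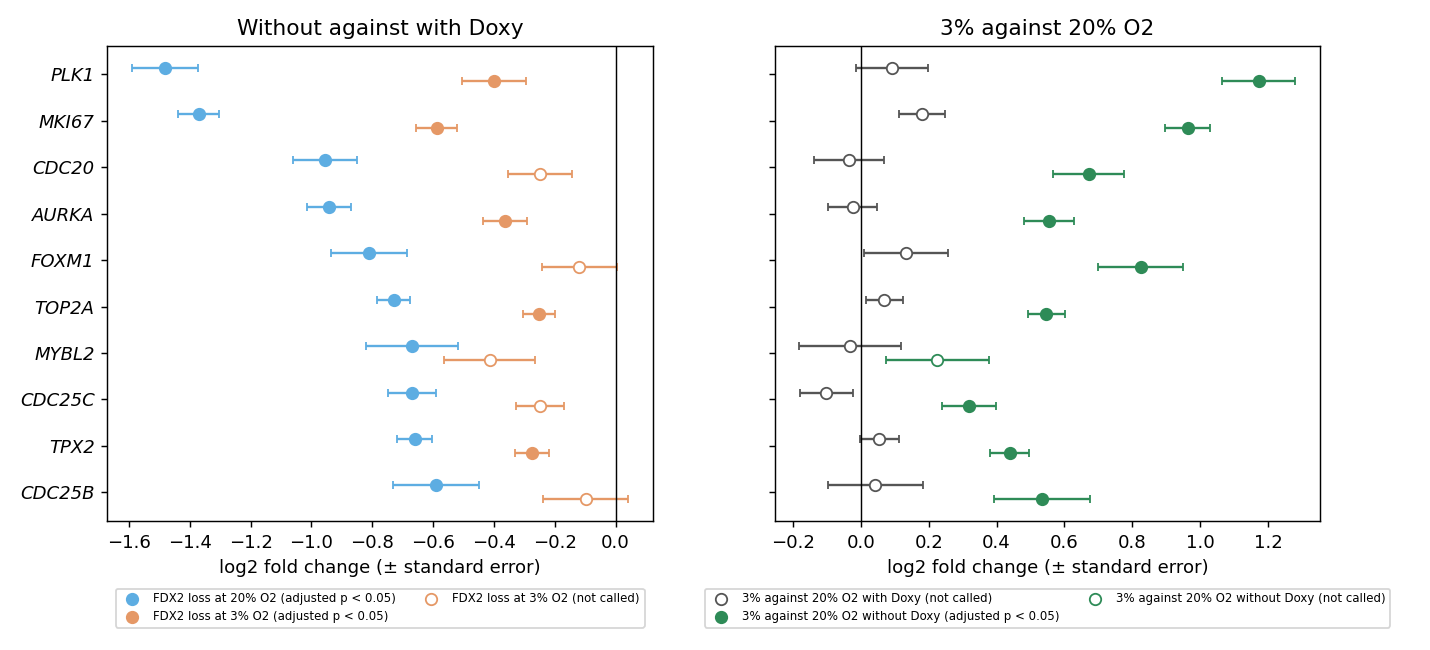
log2 fold change (x axis, with standard error bars) of each gene (y axis) without against with Doxy at 20% and 3% O2 (left) and at 3% against 20% O2 with and without Doxy (right), with filled points at an adjusted p under 0.05 and open points otherwise. All 10 points at 20% O2 are filled and lie further from 0 than those at 3% O2, and at 3% against 20% O2 no point is filled with Doxy and 9 are without Doxy.

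The effect of O2 was then compared in cells with and without Doxy, and the difference between these effects is by construction the difference of the responses given above. In cells with Doxy, edgeR called none of the 10 between 3% and 20% O2, 1 (MKI67) had an unadjusted p under 0.05, and DESeq2 called none. Over all 16891 tested genes, edgeR called 1.63% higher and 0.385% lower, and 2193 had an unadjusted p under 0.05. The log2 fold changes lay between −0.10 ± 0.077 for CDC25C and 0.18 ± 0.067 for MKI67. In MKI67 alone the replicates did not overlap, with those at 3% O2 higher. Of all 16891 tested genes, 1492 (8.83%) lay higher without overlap and 1117 lower, so that 1 of the 10 was no more than the share of all genes. FOXM1 had 0.13 ± 0.12, PLK1 0.091 ± 0.11 and AURKA −0.023 ± 0.072.

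In cells without Doxy, 9 of the 10 genes were called higher at 3% than at 20% O2, against 13.9% of all tested genes, and in all 10 the replicates at 3% O2 lay above those at 20% O2, against 27.4% of all tested genes. PLK1 was 2.25 times higher at 3% O2, with a log2 fold change of 1.17 ± 0.11 (adjusted p = 4.68e-05). MKI67 followed at 0.96 ± 0.068 (adjusted p = 8.17e-06), FOXM1 at 0.82 ± 0.13 (adjusted p = 0.000992) and CDC20 at 0.67 ± 0.10 (adjusted p = 0.00118). AURKA had 0.55 ± 0.073 (adjusted p = 0.000402), TOP2A 0.55 ± 0.054 (adjusted p = 7.39e-05) and TPX2 0.44 ± 0.057 (adjusted p = 0.000398). The phosphatase genes were nearer the threshold, with 0.53 ± 0.14 (adjusted p = 0.0186) for CDC25B and 0.32 ± 0.079 (adjusted p = 0.0142) for CDC25C. The call of CDC25B was lost without the first or the third replicate at 20% O2 or the second at 3% O2, and that of CDC25C without the second at 20% O2. This comparison and the others share libraries, so their values are given side by side and not as independent evidence.

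MYBL2 was the exception without Doxy, at 0.22 ± 0.15 (adjusted p = 0.294). A fit to the 6 libraries alone used the replicate number as a block, which takes same-numbered libraries as pairs. In that fit MYBL2 was called at 0.21 ± 0.054 (adjusted p = 0.0414), but in all 12 libraries with the block it was 0.23 ± 0.17 (adjusted p = 0.367). With the GC trend taken out MYBL2 was at −0.019 ± 0.063 (adjusted p = 0.848).

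GC content was measured beside these values because it moved with the spread between replicates. In the first replicate at 20% O2 with Doxy, the genes of 54.3% to 60.2% GC (FOXM1, CDC20, PLK1, CDC25B and MYBL2) stood log2 0.23 to 0.41 above the mean of the other 2 replicates. Those of 38.9% to 48.0% GC (TOP2A, AURKA, TPX2, CDC25C and MKI67) stood at −0.19 to 0.031. In the third replicate at 3% O2 with Doxy the GC-rich genes stood 0.31 to 0.52 above and the other 5 at −0.10 to 0.28. At 20% O2 with Doxy, taking out each library's GC trend brought the coefficient of variation of MYBL2 from 17.6% to 3.43%. That of PLK1 went from 11.6% to 2.35%, but those of MKI67 and CDC25C rose from 1.54% to 4.09% and from 1.29% to 4.89%. At 3% O2 with Doxy the coefficient fell in PLK1, AURKA, CDC20, CDC25B, FOXM1 and MYBL2. There it rose in TOP2A from 2.23% to 9.17% and in TPX2 from 2.97% to 5.67%. It also rose in MKI67 from 11.5% to 12.8% and in CDC25C from 10.9% to 12.6%. With both libraries left out, all 10 genes were called lower at 20% O2, 6 at 3% O2 (the 5 and MYBL2), and 9 for the difference of the responses (all but MYBL2). Over all 17220 genes tested in that fit, 6755, 3331 and 2497 were called in either direction, in the same order. The main fit called 5961, 1235 and 1231 of 16891 genes.

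**Figure D3:**
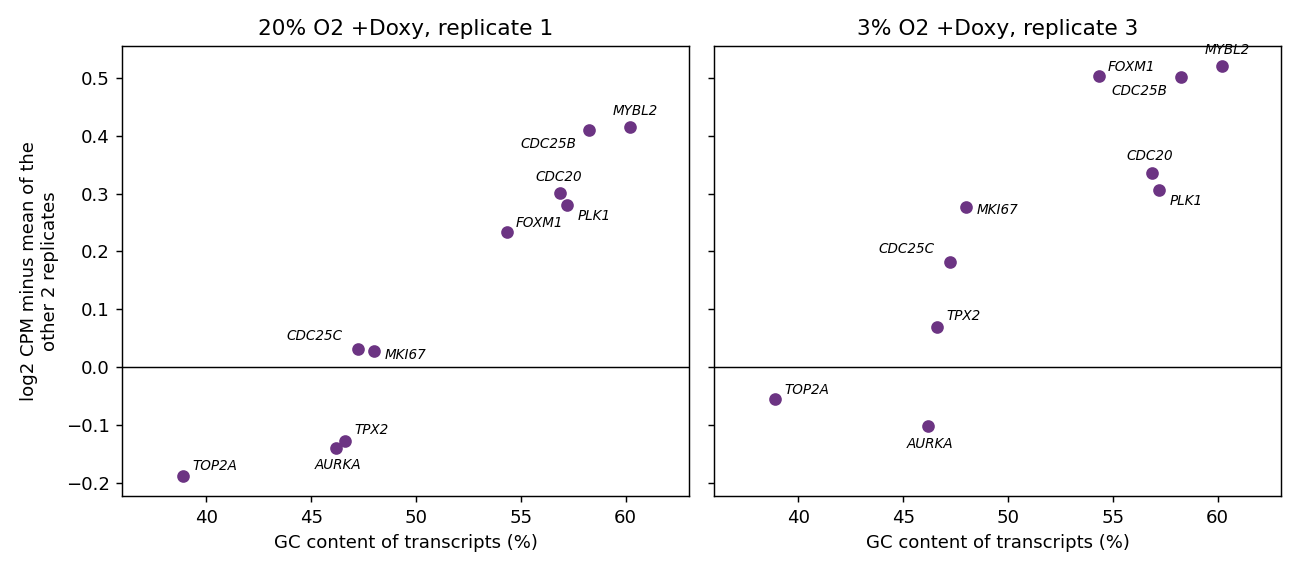
log2 CPM of each gene in the library named above the panel minus the mean log2 CPM of the other 2 replicates (y axis) against the GC content of its transcripts in percent (x axis), 1 point per gene. In both libraries the 5 genes above 54% GC lie between 0.23 and 0.52 and the 5 genes below lie between −0.19 and 0.28.

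Other genes of the pathway were taken from lists of genes with known roles. Of 23 genes known as FOXM1 targets outside the 10, 22 were called lower on FDX2 loss at 20% O2 (median log2 fold change −0.73) and 14 at 3% O2 (−0.28), and the difference of the responses was called higher in 18. Of all tested genes, 17.7% were called lower at 20% O2, 3.11% lower at 3% O2 and 3.21% higher for the difference. KIF20A, a kinesin of cytokinesis, had −1.56 ± 0.065 (adjusted p = 9.48e-08) at 20% O2, −0.49 ± 0.064 (adjusted p = 0.00137) at 3% O2 and a difference of 1.07 ± 0.090 (adjusted p = 0.000194). BIRC5, the survivin gene of the chromosomal passenger complex, had −1.05 ± 0.051 (adjusted p = 2.83e-07) at 20% O2 and a difference of 0.80 ± 0.071 (adjusted p = 0.000220). SKP2, the F-box protein of the SCF ligase that degrades p27, had −1.03 ± 0.053 (adjusted p = 3.31e-07), −0.40 ± 0.053 (adjusted p = 0.00153) and a difference of 0.64 ± 0.075 (adjusted p = 0.00101). BUB1, a kinase of the spindle checkpoint, had −0.42 ± 0.062 (adjusted p = 0.00251) at 3% O2. The one gene not called at 20% O2 was CKS1B, a CDK subunit, at 0.055 ± 0.073, with a difference of 0.13 ± 0.10. ECT2 (−0.046 ± 0.079) and CKS2 (0.054 ± 0.093) were furthest from a call at 3% O2, and PRC1 had a difference of 0.20 ± 0.26.

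Of 15 other genes of the mitotic entry switch, 11 were called lower at 20% O2 (median −0.59), 7 at 3% O2 (−0.18), and 7 for a smaller fall at 3% O2. The shares of all tested genes were 17.7%, 3.11% and 3.21% in the same order. CCNA2, the cyclin A2 gene, had −1.08 ± 0.058 (adjusted p = 4.11e-07) at 20% O2, −0.30 ± 0.057 (adjusted p = 0.0101) at 3% O2 and a difference of 0.78 ± 0.081 (adjusted p = 0.000531). CCNB1, the cyclin B1 gene, had −1.16 ± 0.069 (adjusted p = 7.85e-07), −0.35 ± 0.068 (adjusted p = 0.0109) and 0.80 ± 0.10 (adjusted p = 0.00109). GTSE1, a microtubule-binding protein of G2 and mitosis, had −1.10 ± 0.083 (adjusted p = 3.5e-06), −0.41 ± 0.082 (adjusted p = 0.0128) and 0.68 ± 0.12 (adjusted p = 0.00612). MASTL, the Greatwall kinase that restrains the phosphatase PP2A, had −0.12 ± 0.079 at 20% O2, −0.029 ± 0.079 at 3% O2 and a difference of 0.094 ± 0.11. The PP2A subunit PPP2R2D had −0.11 ± 0.068 at 20% O2, and its inhibitors ENSA and ARPP19 had 0.028 ± 0.053 at 3% O2 and a difference of 0.083 ± 0.14, none of them called.

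The MuvB and DREAM genes encode or act on complexes that, as MuvB, carry B-MYB and FOXM1 to their targets or, as DREAM, hold the same genes silent in resting cells. Their calls were near the share of all genes. At 20% O2, 2 of 12 were called lower and 2 higher (median −0.028), against 17.7% of all tested genes lower and 17.6% higher. At 3% O2 edgeR called none, 2 had an unadjusted p under 0.05, and DESeq2 called 1. Over all 16891 tested genes there, edgeR called 1235, and 3901 had an unadjusted p under 0.05. DESeq2 called 1925 of 15171. TFDP1, the partner of the E2F factors, had −0.60 ± 0.056 (adjusted p = 1.6e-05) at 20% O2 and a difference of 0.46 ± 0.079 (adjusted p = 0.00670). This was the one difference called in the list, in a direction called in 3.21% of all tested genes. Its relative TFDP2 was higher at 0.37 ± 0.073 (adjusted p = 0.00251), and E2F4 lower at −0.47 ± 0.12 (adjusted p = 0.0132). DYRK1A had −0.021 ± 0.061 and the MuvB core subunit LIN9 −0.035 ± 0.10 at 20% O2, and LIN9 0.020 ± 0.10 and E2F5 0.0027 ± 0.11 at 3% O2, none of them called. The differences of LIN9 (0.054 ± 0.14) and LIN52 (−0.0028 ± 0.12) were not called either.

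The anaphase-promoting complex is the ubiquitin ligase that CDC20 activates. Of 16 genes of its subunits and partners, 6 were called lower and 2 higher at 20% O2 (median −0.067), against the same 17.7% and 17.6% of all tested genes. At 3% O2 edgeR called none, 1 had an unadjusted p under 0.05, and DESeq2 called 1. Over all 16891 tested genes there, edgeR called 1235, and 3901 had an unadjusted p under 0.05. DESeq2 called 1925 of 15171. UBE2S, the ubiquitin-conjugating enzyme that lengthens the chains, had −1.07 ± 0.22 (adjusted p = 0.00346), and the subunit gene ANAPC15 had −0.59 ± 0.10 (adjusted p = 0.000810) at 20% O2, −0.019 ± 0.10 at 3% O2 and a difference of 0.57 ± 0.14 (adjusted p = 0.0308). ANAPC16 was higher at 0.54 ± 0.078 (adjusted p = 0.000335), with a difference of −0.56 ± 0.11 (adjusted p = 0.0126). Among all tested genes 4.08% were called in this direction and 3.21% in that of ANAPC15. ANAPC10 (0.10 ± 0.25) and ANAPC11 (−0.034 ± 0.14) at 20% O2, ANAPC5 (0.0094 ± 0.066) at 3% O2, and the differences of ANAPC10 (0.13 ± 0.36) and CDC26 (−0.036 ± 0.18) were not called.

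G1/S genes act before mitotic entry and are driven by E2F factors. Of 18, 17 were called lower at 20% O2 (median −0.62) and 11 at 3% O2 (−0.31), and 8 were called for a smaller fall at 3% O2. Among all tested genes these shares were 17.7%, 3.11% and 3.21%. MCM6, of the replicative helicase, had −0.90 ± 0.047 (adjusted p = 3.51e-07) at 20% O2 and −0.62 ± 0.047 (adjusted p = 7.07e-05) at 3% O2. PCNA, the sliding clamp, had −0.88 ± 0.050 (adjusted p = 6.4e-07) and −0.50 ± 0.049 (adjusted p = 0.000356). TYMS, thymidylate synthase, had −0.86 ± 0.049 (adjusted p = 6.4e-07) at 20% O2 and a difference of 0.53 ± 0.069 (adjusted p = 0.00165). GINS2 had −0.42 ± 0.057 (adjusted p = 0.00170) at 3% O2 and a difference of 0.55 ± 0.080 (adjusted p = 0.00286), and its helicase partner CDC45 a difference of 0.47 ± 0.072 (adjusted p = 0.00402). RRM2 was not called at 20% O2 (−0.10 ± 0.093) or 3% O2 (−0.044 ± 0.093), nor were MCM2 at 3% O2 (−0.063 ± 0.12) and the difference of CCNE2 (0.023 ± 0.14).

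**Figure D4:**
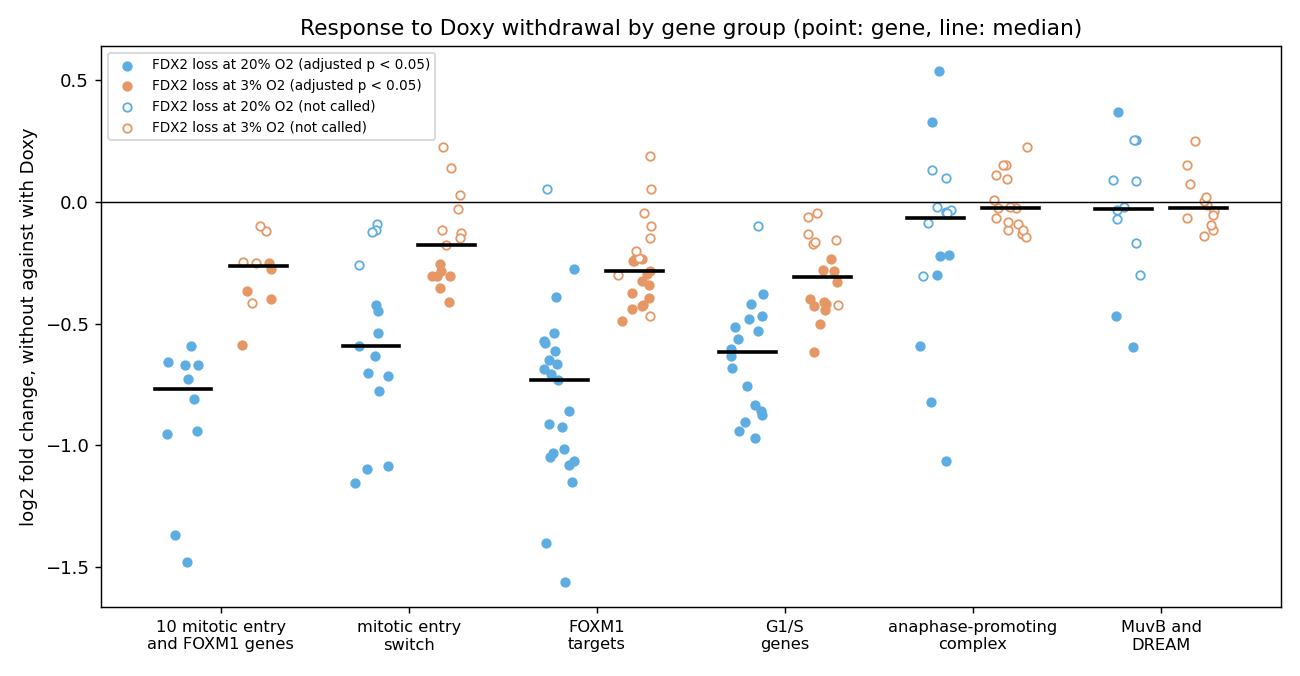
log2 fold change without against with Doxy (y axis) of each gene in 6 groups (x axis) at 20% O2 (blue) and 3% O2 (orange), with filled points at an adjusted p under 0.05, open points otherwise and a line at the median. The medians of the 10 genes, the mitotic entry switch, the FOXM1 targets and the G1/S genes lie between −0.77 and −0.59 at 20% O2 and between −0.31 and −0.18 at 3% O2, and those of the anaphase-promoting complex and of MuvB and DREAM lie within 0.1 of 0 at both.

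The lists were also compared between 3% and 20% O2. With Doxy, edgeR called none of the genes in these 5 lists. An unadjusted p under 0.05 was seen in 2 FOXM1 targets, no gene of the mitotic entry switch, 2 of MuvB and DREAM, 2 of the anaphase-promoting complex and 5 G1/S genes, against 2193 of all 16891 tested genes. DESeq2 called 3 G1/S genes and none in the other 4 lists, against 620 of 15171 genes. Without Doxy, 19 of 23 FOXM1 targets, 9 of 15 genes of the mitotic entry switch and 11 of 18 G1/S genes were called higher at 3% O2. In MuvB and DREAM, 3 were called higher and 2 lower, and in the anaphase-promoting complex 3 higher and 2 lower, against 13.9% of all tested genes higher and 11.9% lower, so that the lower calls of both lists were near the share of all genes.

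Among 10780 other tested genes whose mean reached 5 CPM, the 5 whose log2 CPM was most like the mean standardized log2 CPM of the 10 genes over the 12 libraries were KIF2C (Pearson r = 0.996), CDCA8 (0.993), FAM83D (0.991), NCAPD2 (0.991) and GTSE1 (0.991). These values describe 12 libraries of 4 conditions that share their depth and GC trends. Within the 10, likeness to the mean of the other 9 was highest for MKI67 (0.989) and PLK1 (0.988) and lowest for MYBL2 (0.851) and CDC25B (0.888).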

How the data were processed

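RNA-seq counts of 12 libraries (FDX2-iKO ES2 cells, 4 conditions, 3 replicates each) were analysed. The authors purified poly(A) RNA, primed it with random hexamers, sequenced it paired-end on the DNBSEQ-T7 platform, ran STAR for alignment and featureCounts for the counting, and the deposited values are raw counts, neither normalized nor pooled. The versions of STAR and featureCounts, the annotation and the strand setting are not given in the sources used here, and without strand, reads of genes that overlap on opposite strands cannot be told apart. Among the list genes named, other annotated genes share 90.7% of the exonic bases of TOP3B, 58.4% of PRC1, 46.6% of TYMS, 37.1% of CCNE2, 29.6% of ANAPC10 and 27.1% of ANAPC15, whose values are uncertain for that reason, and 9.08% of CCNA2 and 5.05% of KIF20A. All 58735 identifiers were those of GENCODE release 29 on GRCh38, which gave positions, exon lengths and GC content of transcripts. The submitters' processing notes also name DESeq2.

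In R 4.3.3, genes were kept by filterByExpr of edgeR 4.0.16 (minimum count 10, minimum total 15), which left 16891 of 32966 genes with a count, scaled by TMM, and tested with edgeR's quasi-likelihood test on 4 condition means (8 residual degrees of freedom, Benjamini-Hochberg over all tested genes, called at an adjusted p under 0.05, standard errors from the F statistic). Depth was 24958386 to 34313637 counts (median 29621780), and the common biological coefficient of variation was 16.3%. P-values measure the spread between these replicates, which are of 1 clone unless the study states otherwise. The labels do not name the clone. The statistics were tested on simulated counts.

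The 10 genes and the lists were chosen with earlier results of these data known. Genes named from a list were, on FDX2 loss and for the difference of the responses, up to 3 called genes of lowest adjusted p and up to 2 not called of highest, and in the comparisons between O2 levels lists are given by counts. A gene named by this rule for the difference of the responses is not reported here and was not replaced. Alternatives were DESeq2 1.42.0 (size factors and Wald test), other filters, an adjusted p under 0.01, a minimum change of 1.5-fold, a replicate block, a correction for GC content (lowess, span 0.3, genes above log2 CPM 2), fits to the libraries compared and fits without single libraries. Leaving out both libraries of steep GC trend and the 6-library blocked fit were added after the data were seen. Same-numbered libraries without Doxy at 20% and 3% O2 deviated together (correlations of 0.19 to 0.50 in 3 pairs, against −0.47 to 0.23 in the 6 others), so replicate numbers were taken to pair them, while no other comparison met this. These ranges overlap, and the labels give replicate numbers without saying that libraries were paired.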

Additional observations from a re-analysis of the deposited data

Results flagged for a closer look

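The response to FDX2 loss differed between 3% and 20% O2 by the test of that difference itself (edgeR's quasi-likelihood test, adjusted p under 0.05) in 8 of the 10 genes. Among all tested genes, 3.21% were called with a higher and 4.08% with a lower response at 3% O2. The log2 fold change at 3% O2 minus that at 20% O2 was 1.08 for PLK1, 0.58 for AURKA, 0.71 for CDC20, 0.42 for CDC25C, 0.69 for FOXM1, 0.38 for TPX2, 0.48 for TOP2A and 0.78 for MKI67. In all of them the fall at 20% O2 was the larger. With the replicate number as a block, 4 kept the call (PLK1, AURKA, TOP2A and MKI67). With single libraries left out, the calls of CDC25C, FOXM1 and TPX2 held in 1, 3 and 7 of 12 fits.

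Genes named from the lists are given here where they passed the same test. The naming took called genes of lowest adjusted p, so that they passed follows from the choice. The difference was 0.78 for CCNA2, 0.80 for CCNB1 and 0.68 for GTSE1 in the mitotic entry switch. It was 0.46 for TFDP1 in the MuvB and DREAM complex. It was 1.07 for KIF20A, 0.80 for BIRC5 and 0.64 for SKP2 among the FOXM1 targets. It was −0.56 for ANAPC16 and 0.57 for ANAPC15 in the anaphase-promoting complex. It was 0.53 for TYMS, 0.55 for GINS2 and 0.47 for CDC45 among the G1/S genes. ANAPC16 alone among these was higher without than with Doxy at 20% O2, and its response was the one that lay lower at 3% O2.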

How the results depend on the processing

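Of the 10 genes, all 10 were called lower on FDX2 loss at 20% O2 under every alternative but a minimum change of 1.5-fold, which called 4, and 10 with each library left out. On FDX2 loss at 3% O2, 5 were called, against 1 at an adjusted p under 0.01, 4 without a filter on low counts, 1 in a fit to the libraries compared, 0 at a minimum change of 1.5-fold, 3 with the replicate block in the fit to all 12 libraries, 7 with the GC correction, 7 with DESeq2's Wald test and 1 to 4 with a library left out. For 3% against 20% O2 without Doxy, 9 were called, against 7 at an adjusted p under 0.01, 2 at a minimum change of 1.5-fold, 10 with the replicate block in the 6 libraries compared and 8 to 9 with a library left out. For the difference of the responses, 8 were called, against 4 at an adjusted p under 0.01, 6 without a filter on low counts, 4 with the replicate block, 0 at a minimum change of 1.5-fold, 9 with the GC correction and 5 to 9 with a library left out. For 3% against 20% O2 with Doxy none was called under any alternative. Over all tested genes, the replicate block moved the calls on FDX2 loss at 3% O2 from 1235 to 676 and for the difference from 1231 to 615, and the GC correction moved them to 2549 and 2828. The cause was not tested. The replicate numbers were taken to pair the libraries without Doxy alone, which the labels do not state. There the blocked fits changed no call of the 10 genes but that of MYBL2. Of the genes named, FDX2, MUC16, EMX2, CDH1, EPCAM, PECAM1 and VWF had too few counts to be tested. The log2 fold changes that turned sign were at most 0.22 in size in the main analysis and none of them was called there.

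With DESeq2's size factors, the sign turned for ANAPC5 −0.010, TOP3B −0.0090, E2F5 −0.017 and LIN9 −0.0011 on FDX2 loss at 3% O2. Without a filter on low counts, the sign turned for ENSA −0.0049, ANAPC5 −0.024, TOP3B −0.024, E2F5 −0.032 and LIN9 −0.014 on FDX2 loss at 3% O2, and for LIN52 0.0025 for the difference of the responses. With at least 10 counts required in every library, the sign turned for ANAPC5 −0.0018 and E2F5 −0.0094 on FDX2 loss at 3% O2, and for CCNE2 −0.00012 for the difference of the responses. With the replicate block, the sign turned for E2F5 −0.0019 on FDX2 loss at 3% O2. With the GC correction, the sign turned for CKS1B −0.022 and ANAPC11 0.076 on FDX2 loss at 20% O2, and for ECT2 0.012, TOP3B −0.039 and MASTL 0.024 on FDX2 loss at 3% O2, and for CDC25B −0.0017 for 3% against 20% O2 with Doxy, and for MYBL2 −0.019 for 3% against 20% O2 without Doxy, and for TOP3B −0.039, CDC26 0.065 and LIN52 0.089 for the difference of the responses. With the GC correction and the replicate block, the sign turned for CKS1B −0.022, ANAPC11 0.073 and TOP3B 0.0012 on FDX2 loss at 20% O2, and for ECT2 0.012, TOP3B −0.039 and MASTL 0.025 on FDX2 loss at 3% O2, and for CDC25B −0.0043 for 3% against 20% O2 with Doxy, and for MYBL2 −0.018 for 3% against 20% O2 without Doxy, and for TOP3B −0.040, CDC26 0.071 and LIN52 0.088 for the difference of the responses. In fits to the libraries compared, the sign turned for ANAPC5 −0.016, TOP3B −0.013, E2F5 −0.023 and LIN9 −0.0088 on FDX2 loss at 3% O2. With both libraries of steep GC trend left out, the sign turned for CKS1B −0.0091, ANAPC11 0.061, TOP3B 0.0050 and ANAPC10 −0.023 on FDX2 loss at 20% O2, and for FOXM1 0.034, ENSA −0.023, MCM2 0.031, CKS2 −0.079, CDC25B 0.054, TOP1MT 0.010, E2F5 −0.088 and LIN9 −0.072 on FDX2 loss at 3% O2, and for TPX2 −0.022 and CDC25B −0.0072 for 3% against 20% O2 with Doxy, and for LIN52 0.043 for the difference of the responses. With DESeq2's Wald test, the sign turned for ANAPC5 −0.010, TOP3B −0.0082, E2F5 −0.017 and LIN9 −0.00054 on FDX2 loss at 3% O2.

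With single libraries left out, the log2 fold changes that turned sign in at least 1 fit ranged as ANAPC11 −0.12 to 0.083, TOP1MT −0.030 to 0.16, TOP3B −0.23 to 0.027, LIN9 −0.15 to 0.043 and ANAPC10 −0.00073 to 0.17 on FDX2 loss at 20% O2. The ranges were TOP2A −0.00091 to 0.11, CDC20 −0.16 to 0.060, FOXM1 −0.055 to 0.22, AURKA −0.079 to 0.0092, PLK1 −0.019 to 0.18, CDC25B −0.15 to 0.18 and MYBL2 −0.23 to 0.11 for 3% against 20% O2 with Doxy. The ranges were ARPP19 −0.0016 to 0.17, TOP1MT −0.18 to 0.024, CCNE2 −0.066 to 0.11, TOP3B −0.032 to 0.31, CDC26 −0.17 to 0.048, LIN9 −0.025 to 0.15, LIN52 −0.10 to 0.066 and ANAPC10 −0.25 to 0.32 for the difference of the responses. The ranges were FOXM1 −0.22 to 0.068, ENSA −0.019 to 0.083, MCM2 −0.14 to 0.065, CKS2 −0.046 to 0.11, ANAPC5 −0.033 to 0.078, RRM2 −0.12 to 0.011, CDC25B −0.19 to 0.088, TOP1MT −0.059 to 0.044, TOP3B −0.11 to 0.19, E2F5 −0.12 to 0.11, LIN9 −0.046 to 0.079, MASTL −0.072 to 0.0014 and ANAPC15 −0.14 to 0.048 on FDX2 loss at 3% O2.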

Other observations

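TOP2A was also set beside the other topoisomerase genes. Of 5 (TOP1, TOP2B, TOP3A, TOP3B and TOP1MT), 2 were called lower on FDX2 loss at 20% O2 (median log2 fold change −0.25), TOP1, the nuclear type I enzyme, at −0.27 ± 0.055 (adjusted p = 0.00342) and TOP2B, the close relative of TOP2A that non-dividing cells also express, at −0.28 ± 0.071 (adjusted p = 0.0108). TOP3B (−0.12 ± 0.15) and TOP1MT (0.058 ± 0.089), the mitochondrial enzyme, were not called. Among all tested genes, 17.7% were called lower at 20% O2. At 3% O2 edgeR called none of the 5, 1 had an unadjusted p under 0.05, and DESeq2 called none, with TOP3B at 0.0094 ± 0.15 and TOP1MT at −0.0053 ± 0.089. For the difference of the responses edgeR called none as well, 1 had an unadjusted p under 0.05, and DESeq2 called none, with 0.13 ± 0.22 for TOP3B and −0.063 ± 0.13 for TOP1MT. Over all 16891 tested genes, 3901 had an unadjusted p under 0.05 at 3% O2 and 3956 for the difference.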
